A study of Mus musculus with 6 samples.

Results

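Lymphocytes are a small population among the cells of the heart, and 36 genes that mark T cells, B cells, natural killer (NK) cells and their shared regulators were examined in the atria of obese and lean mice. The genes were chosen by name, as known markers of these cells, and each of the 36 was found once among the 43432 genes of the deposited table, of which 24679 had a read in at least 1 sample. They comprise 14 genes of the T cell receptor and its signaling, 7 of the B cell receptor and B cell identity, 7 of NK and cytotoxic cells, and 8 lineage factors, checkpoints and shared regulators. Atria were taken from 3 wild-type C57/Bl6J mice fed a high fat diet (HFD, the obese group) and from 3 fed control chow (the lean group). Each diet began when the mice were 6 weeks old and lasted 10 weeks, so both groups were of the same age and genotype and carried no transgene. The sample titles and the treatment field of the labels give opposite diets for all 6 samples, and the titles, which match the column names of the deposited table, were followed. If the treatment field were right instead, every direction given here would turn around. Right and left atrial tissue was used, and the sources do not say how the 2 chambers were combined or whether blood was washed from the tissue. Each sample was taken to be 1 mouse, which the sources do not state. Values are normalized counts, the reads of a gene divided by 1 size factor per sample.

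T cells recognize antigen through a receptor whose variable chains sit in the membrane with the CD3 chains and the zeta chain CD247, and the kinases LCK and ZAP70 and the adaptor LAT pass the signal on. B cells carry membrane immunoglobulin with the signaling pair CD79A and CD79B, and plasma cells, into which they mature, secrete antibody. NK cells and cytotoxic T cells kill target cells with perforin and granzymes. In the heart, lymphocytes lie scattered between myocytes, in the vessels and in the fat on the outer surface, and adipose tissue of obese animals is known for an altered T cell and regulatory T cell content. In bulk tissue, fewer cells of a type and less RNA per cell cannot be told apart.

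Reads on genes ranged from 15874251 to 28971508 per sample, and 3 reads, taken as the smallest signal, corresponded to 2.05 to 3.41 normalized counts. Such limits and all Poisson intervals cover counting error only. The myocyte genes of the atrium (Nppa, Myl7, Myl4, Sln and Myh6) summed to 557783 to 972027 normalized counts per mouse. Rag1, Rag2, Dntt and Foxn1, which define immature thymocytes and the thymus, were listed at 0 in all 6 mice, and the other 2 thymus genes, Ptcra and Aire, together had 4, 4 and 2 reads in the HFD mice and 0, 0 and 1 in the control mice. Most lymphocyte genes had few reads. Of the 36, 23 had a mean below 10 normalized counts and were not tested, and 13 passed this limit. Nkg7, with a mean of 9.71, lay just below it and Cd79b, with 10.2, just above. No read was found in at least 1 mouse for 15 of the 36 genes, and 23 had fewer than 3 reads in at least 1 mouse. Per kilobase of exon, the mean over the 6 mice was 158 normalized counts for Ighm, 12.9 for Gata3, 10.6 for Nkg7, 10.1 for Cd247 and 9.87 for Ikzf1, while it was 0.258 for Ms4a1 and 0.183 for Pax5. On the same scale the macrophage gene Adgre1 was at 131 and the pan-leukocyte gene Ptprc at 11.1. Lengths are the union of all annotated exons, 3238 bases for Adgre1 and 18313 for Ptprc, so the values depend on the annotation. Nkg7 was at 15.5 in the HFD mice and 5.69 in the control mice, and reads of Cd247 cannot be told from those of Pou2f1 (below).

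With limma, 0 of the 13 lymphocyte genes tested had an adjusted p under 0.05 (Benjamini-Hochberg over all genes), against 0.746% of the 15275 genes tested. An unadjusted p under 0.05 was found for 1 of the 13, Ctla4, against 12.2% of all genes. On the recovered reads edgeR also called 0 of the 13, and DESeq2 0 of the 5 for which it gave an adjusted p, each with 1 gene at an unadjusted p under 0.05, Ctla4. DESeq2 gave no adjusted p for the other 8. The HFD and control values did not overlap for 1 of the 13 genes tested, against 18% of all genes tested, and for 1 of the 23 genes below the limit, Foxp3, against 10.4% of all genes with a mean from 1 to under 10 (Ncr1, at 0.543, lies below that range). The median log2 fold change (HFD minus control) of the 13 genes was 0.26, with 9 above 0 and 4 below 0, while the median over all genes tested was 0.00. Cd8a, Lat, Cd79b and Ltb, all above 0, passed the limit for testing only through their HFD values (control means 7.33, 7.61, 9.01 and 8.87). Their direction is tied to that limit, and so in part are this median and the count above 0. Each share of lymphocyte genes was thus near or below that of all genes.

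HFD mouse 3 stood apart. It had the highest value of the 6 mice for 21 of the 36 genes, among them 11 of the 14 T cell genes and 4 of the 7 NK and cytotoxic genes, while every other mouse was highest for 2 to 4. The share of all genes that were highest in this mouse was not counted. HFD mouse 3 also had the fewest reads on genes, 15874251, and the lowest mitochondrial share, 19.5%. In wider lists it was highest for 12 of 31 other T cell, 9 of 23 other NK and 5 of 26 other B cell genes. The 31 summed to 1018 there and 981 to 1064 in the other mice. The 23 summed to 292 and 125 to 187, and the 26 to 3794 and 2656 to 3277. The most abundant gene had a mean of 494 in the list of 31 and 1628 in that of 26. Genes that other cell types also make (below) thus weigh heavily in those sums. Without HFD mouse 3 the median log2 fold change of the 13 genes was -0.02, with 6 above 0 and 7 below 0. The median was 0.27 for the 6 T cell genes tested and -0.27 without this mouse, -0.31 and 0.04 for the 3 B cell genes, and 0.33 and 0.20 for the 4 regulators. Each of these groups includes genes tested only because of their HFD values (Cd8a and Lat, Cd79b, and Ltb). Results that rest on HFD mouse 3 are therefore given with and without it. For a gene where it was the highest HFD mouse, leaving it out lowers the fold change by construction. The pan-leukocyte and dendritic cell lists were also highest in HFD mouse 3, while the neutrophil list, at 158 there and 132 to 432 in the other mice, was not. The 9 pan-leukocyte genes summed to 2065, 2001 and 2985 normalized counts in the HFD mice and to 1983, 1968 and 1575 in the control mice. These groups did not overlap, with HFD mice 1 and 2 just above the control range, and 8 of the 9 genes were highest in HFD mouse 3. Of the 9, 2 had an unadjusted p under 0.05 and 0 an adjusted p under 0.05 (limma). The 7 dendritic cell genes summed to 459 in HFD mouse 3 and 258 to 362 in the others, and the 4 proliferation genes, each of them highest in HFD mouse 3, to 229 and 92.8 to 161. The 11 macrophage and monocyte genes summed to 13800, 11629 and 12745 in the HFD mice and to 11393, 10922 and 8614 in the control mice, without overlap, and 5 of them had an unadjusted p under 0.05 and 0 an adjusted p under 0.05 (limma). The atrial myocyte genes summed to 557783, 664103 and 972027 in the HFD mice and to 862964 to 905884 in the control mice. The part of any of these in the lymphocyte values was not tested.

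**Figure D1:**
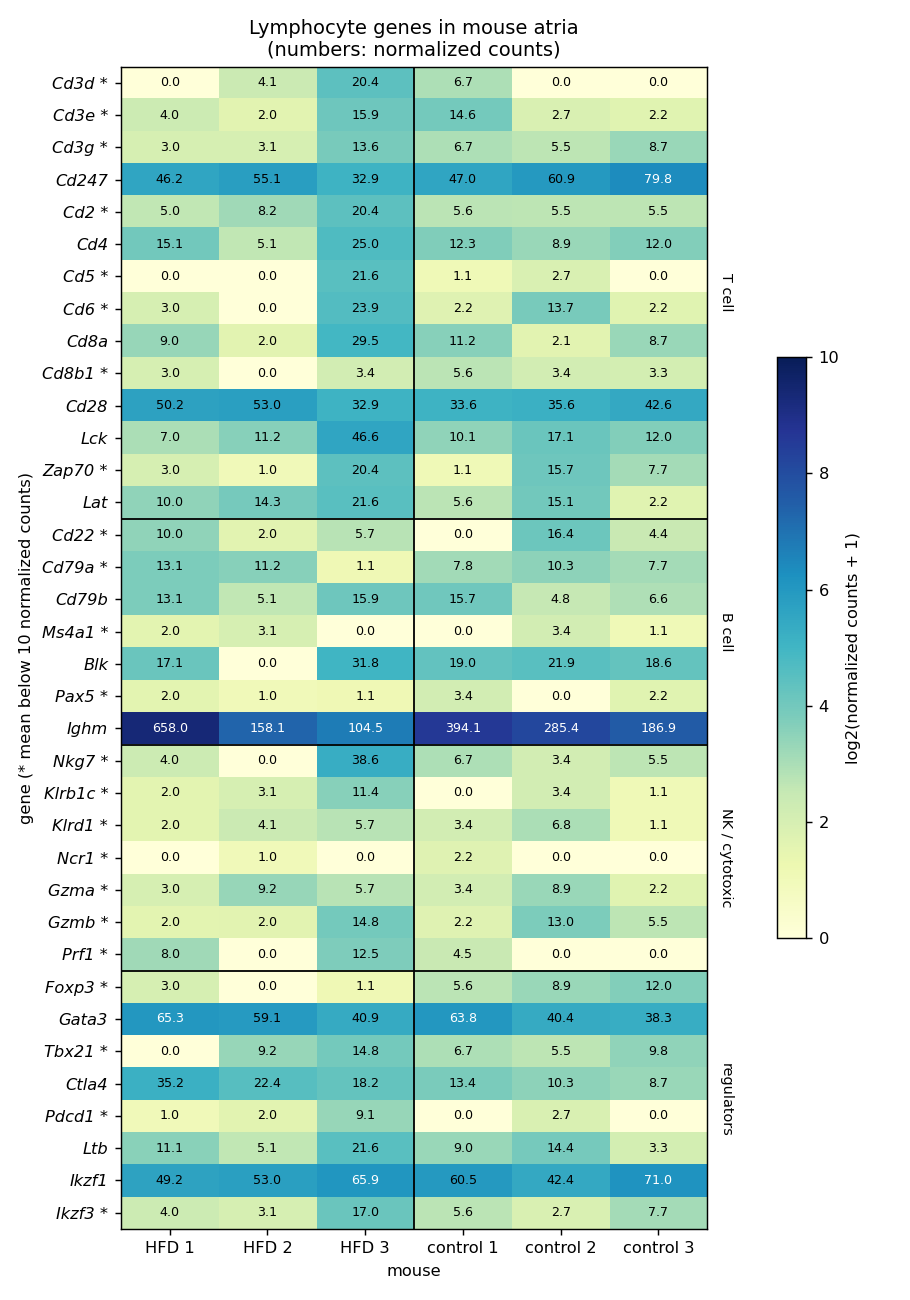
Normalized counts of the 36 lymphocyte genes (printed in each cell) in the 3 HFD and 3 control mice, coloured by log2(normalized counts + 1), in the 4 groups of genes. Asterisks mark the 23 genes with a mean below 10, and the column of HFD mouse 3 is darker than the others for most T cell genes, while Cd247 and Cd28 are lowest there.

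The genes of the CD3 chains, whose proteins form the invariant part of the T cell receptor, lie together on chromosome 9, and in the GRCm38.p6 build the start sites of Cd3g (minus strand) and Cd3d (plus strand) are 1355 bases apart and point away from each other. The 250 bases before the RefSeq start site are shown for the 3 CD3 genes, since all 3 were highest in the same mouse, and for Ctla4, since its groups did not overlap. Each is read 5′ to 3′ on the strand of the gene. Capitals mark the letters of motifs searched on both strands: GGAAG, the core bound by ETS factors, CAGGTG, an E-box bound by E proteins, AGATAA, bound by GATA factors, TGTGGT, bound by RUNX factors, and TATAAA, the TATA box. No printed match overlaps another.
Cd3d, chr9:44981536-44981785, plus strand: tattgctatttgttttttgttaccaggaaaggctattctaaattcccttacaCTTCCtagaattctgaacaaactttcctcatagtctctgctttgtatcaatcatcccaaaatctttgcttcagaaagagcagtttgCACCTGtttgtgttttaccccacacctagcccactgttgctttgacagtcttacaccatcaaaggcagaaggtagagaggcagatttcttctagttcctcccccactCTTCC
Cd3g, chr9:44980432-44980681, minus strand: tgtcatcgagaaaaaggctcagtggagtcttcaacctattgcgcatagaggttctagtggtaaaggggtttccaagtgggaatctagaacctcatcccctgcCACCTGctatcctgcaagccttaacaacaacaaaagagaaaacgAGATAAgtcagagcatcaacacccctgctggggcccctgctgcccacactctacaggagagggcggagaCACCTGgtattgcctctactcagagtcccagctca
Cd3e, chr9:45009612-45009861, minus strand: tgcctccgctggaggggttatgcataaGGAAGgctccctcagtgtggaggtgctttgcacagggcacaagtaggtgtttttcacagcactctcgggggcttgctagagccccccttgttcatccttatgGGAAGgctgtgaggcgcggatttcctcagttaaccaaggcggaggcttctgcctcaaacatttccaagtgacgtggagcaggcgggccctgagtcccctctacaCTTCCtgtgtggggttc
Ctla4, chr1:60908775-60909024, plus strand: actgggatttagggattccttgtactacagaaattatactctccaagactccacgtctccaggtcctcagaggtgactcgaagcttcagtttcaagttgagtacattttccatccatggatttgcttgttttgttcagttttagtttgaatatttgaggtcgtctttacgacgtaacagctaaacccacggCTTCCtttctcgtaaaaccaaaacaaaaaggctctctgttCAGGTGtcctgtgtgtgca
The stretch before Cd3d holds 2 ETS matches and 1 E-box, that before Cd3g 2 E-boxes and 1 GATA match, that before Cd3e 3 ETS matches, and that before Ctla4 1 ETS match and 1 E-box. In the RefSeq table of 300-base promoters (250 bases before and 50 after a start site), 25 of the 36 genes matched by symbol with 31 promoters. The E-box was present in 51.6% of these (16 promoters of 14 genes) and in 20.2% of all 32851 promoters. Several promoters of the same gene are not independent, and no test was made. RUNX letters were present in 32.3% against 16.8%, ETS letters in 77.4% against 71.4%, GATA letters in 6.45% against 11.2% and TATA letters in 6.45% against 13.6%. A match is a description of letters and not a binding site.

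Among the T cell genes, the CD3 chains were near the limit of detection in most mice. Cd3e, the epsilon chain, had 4.02, 2.04 and 15.9 normalized counts in HFD mice 1, 2 and 3 and 14.6, 2.74 and 2.19 in control mice 1, 2 and 3. Cd3d, the delta chain, had 0, 4.08 and 20.4 in the HFD mice and 6.72, 0 and 0 in the control mice. Cd3g, the gamma chain, had 3.01, 3.06 and 13.6 against 6.72, 5.48 and 8.74. HFD mouse 3 was highest for each chain, control mouse 1 was next for Cd3d and Cd3e, and the groups overlapped. Summed over the 3 chains, HFD mouse 3 had 49.98 normalized counts (44 reads, 95% Poisson interval 36.3 to 67.1), control mouse 1 had 27.99 (25 reads, 18.1 to 41.3) and the other 4 mice had 8.21 to 10.9 (7 to 12 reads).

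The coreceptors and the kinase that binds them showed the same mouse. Cd4, the coreceptor of helper T cells, which macrophages and dendritic cells can also transcribe, had 15.1, 5.10 and 24.99 normalized counts in the HFD mice and 12.3, 8.90 and 12.02 in the control mice. Cd8a, the alpha chain of the cytotoxic coreceptor, had 9.04, 2.04 and 29.5 against 11.2, 2.05 and 8.74. Lck, the kinase at both coreceptors, had 7.03, 11.2 and 46.6 against 10.1, 17.1 and 12.02. In all 3 genes HFD mouse 3 was above every other mouse, and HFD mice 1 and 2 lay inside or below the control range, apart from HFD mouse 1 in Cd4. The log2 fold change (limma) was 0.19 for Cd4 (adjusted p = 0.945), 0.45 for Cd8a (adjusted p = 0.902) and 0.28 for Lck (adjusted p = 0.918). Leaving out HFD mouse 3, the highest of its group for each, lowers these values by construction, and all 3 turned negative, to -0.27, -0.37 and -0.48. On the recovered reads edgeR gave 0.44, 0.92 and 0.69, with all 6 mice. Cd8b1, the beta chain of the cytotoxic coreceptor, did not follow Cd8a, with 3.01, 0 and 3.41 in the HFD mice and 5.60, 3.42 and 3.28 in the control mice.

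Of the remaining signaling and surface genes, Cd2, an adhesion receptor, had 20.4 normalized counts in HFD mouse 3 and 5.02 to 8.16 in the other mice. Cd5, which dampens receptor signaling, had 21.6 in HFD mouse 3 and 0 to 2.74 in the others, and was without a read in HFD mice 1 and 2 and control mouse 3. Zap70, the kinase recruited to the zeta chain, had 20.4 in HFD mouse 3, 15.7 in control mouse 2 and 1.02 to 7.65 in the other 4. Cd6, a relative and neighbour of Cd5, behaved as Zap70 did in these mice, with 23.9 in HFD mouse 3, 13.7 in control mouse 2 and 0 to 3.01 in the other 4. Lat, the adaptor, had 10.0, 14.3 and 21.6 in the HFD mice and 5.60, 15.1 and 2.19 in the control mice, so the groups overlapped. The difference was 1.17 ± 0.75 (log2 fold change and its standard error, limma, adjusted p = 0.583), and 0.90 without HFD mouse 3.

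Cd247 and Cd28 had the highest counts of the T cell genes and went the other way in HFD mouse 3. Cd247, the zeta chain, had 46.2, 55.1 and 32.9 normalized counts in the HFD mice and 47.0, 60.9 and 79.8 in the control mice. Cd28, the costimulatory receptor, had 50.2, 53.0 and 32.9 against 33.6, 35.6 and 42.6. HFD mouse 3, which was highest for 11 of the other 12 T cell genes, was the lowest of the 6 for both, for Cd28 hardly below control mouse 1. Differences on the log2 scale were -0.47 for Cd247 (95% confidence interval -1.16 to 0.22, limma, adjusted p = 0.599) and 0.26 for Cd28 (-0.44 to 0.95, adjusted p = 0.803). Exons of Cd247 share 3007 bases with Pou2f1, a widely expressed transcription factor gene on the opposite strand, and the sources do not say whether reads were counted by strand. Reads from the 2 genes therefore cannot be told apart here.

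Summed over all 14 T cell genes, the mice had 158.7, 159.1 and 328.3 normalized counts (HFD) and 163.5, 188.9 and 186.9 (control), and HFD mouse 3 was at 1.74 times the highest of the other mice and 2.01 times their median. Leaving out Cd247 and Cd28, a choice made after their values were seen that raises the share of HFD mouse 3 by construction, the other 12 genes summed to 62.3, 51.0 and 262.4 against 82.9, 92.4 and 64.5. HFD mouse 3, with 231 reads (95% Poisson interval 229.6 to 298.5 normalized counts), was at 2.84 times the highest of the other mice and 4.07 times their median, and HFD mice 1 and 2 were the lowest of the 6. The HFD group thus held both the highest and the 2 lowest sums. Poisson intervals of HFD mouse 1 (47.8 to 79.8), HFD mouse 2 (37.8 to 67.2) and control mouse 3 (49.1 to 83.2) overlapped. The order of these low sums is therefore not settled.

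**Figure D2:**
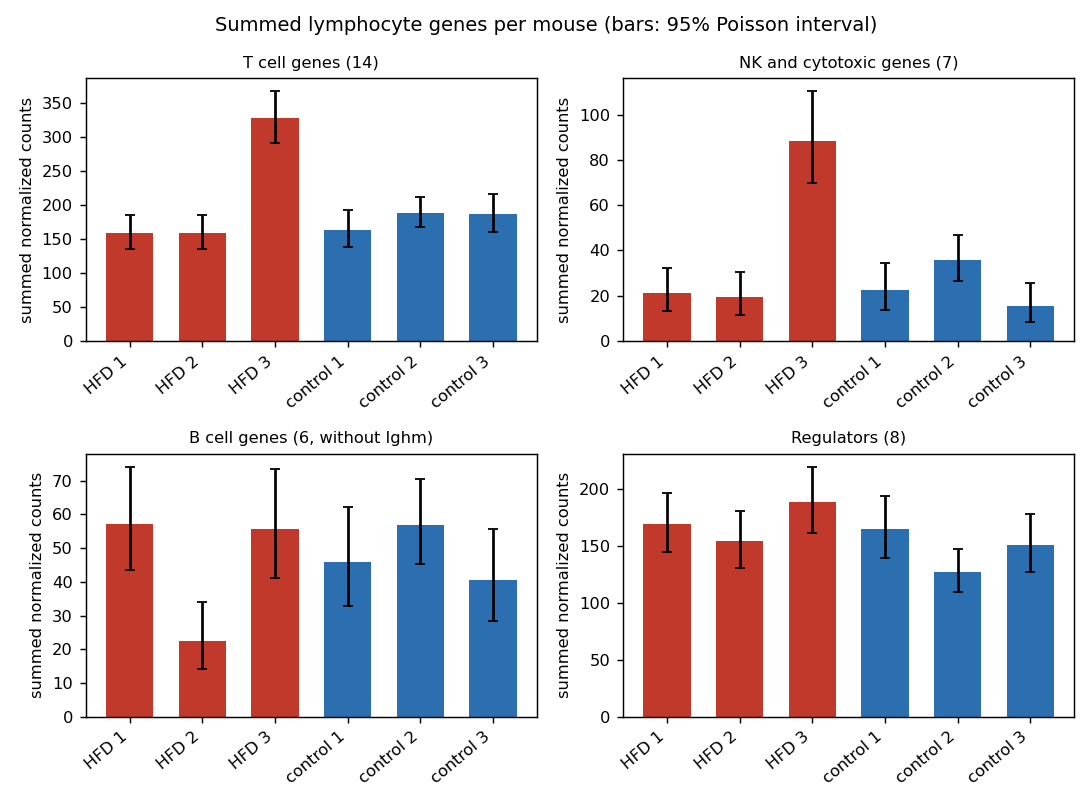
Summed normalized counts of each group of genes in the 3 HFD (red) and 3 control mice (blue), with 95% Poisson intervals that cover counting error only; the B cell panel leaves out Ighm. HFD mouse 3 is at 328.3 in the T cell panel and 88.6 in the NK and cytotoxic panel, above all other mice, and within the range of the others for the B cell genes.

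The NK and cytotoxic genes repeated this at lower counts. All 7 were below a mean of 10 and were not tested. Nkg7, a granule protein gene of NK and cytotoxic T cells, had 4.02, 0 and 38.6 normalized counts in the HFD mice and 6.72, 3.42 and 5.47 in the control mice. Gzmb, granzyme B, had 2.01, 2.04 and 14.8 against 2.24, 13.0 and 5.47. Klrb1c, the NK1.1 antigen, had 2.01, 3.06 and 11.4 against 0, 3.42 and 1.09, and shares 413 exonic bases with Gm44511 on the same strand. Nkg7 and Klrb1c were far highest in HFD mouse 3, while for Gzmb control mouse 2 came close to it. Prf1, perforin, had 12.5 in HFD mouse 3, 8.04 in HFD mouse 1, 4.48 in control mouse 1 and no read in the other 3 mice. Gzma, granzyme A, was highest in HFD mouse 2 at 9.18, beside 8.90 in control mouse 2 and 2.19 to 5.68 in the other 4. Klrd1, the CD94 receptor chain, ranged from 1.09 to 6.84. Ncr1, the NKp46 receptor that defines NK cells, had at most 2 reads in any mouse and was under the limit of 3 reads in all 6, so its presence was not detectable at this depth. The 7 genes summed to 21.1, 19.4 and 88.6 in the HFD mice and 22.4, 35.6 and 15.3 in the control mice. HFD mouse 3 was at 2.49 times the highest of the others, and HFD mice 1 and 2 lay inside the control range.

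B cell genes did not share this pattern. Ighm, the constant region of the IgM heavy chain and the most abundant of the 36 genes per kilobase, had 658, 158 and 104.5 normalized counts in the HFD mice and 394, 285 and 187 in the control mice. HFD mouse 1 was highest and HFD mouse 3 lowest, so the groups overlapped over the whole control range. The difference was -0.31 ± 0.55 (log2 fold change and standard error, limma, adjusted p = 0.871), 0.22 without HFD mouse 3, and -1.10 without HFD mouse 1 (adjusted p = 0.183). Tests of the recovered reads gave a fold change above 0, at 0.09 with edgeR and with DESeq2. No direction can be given for this gene.

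Immunoglobulin genes outside the 36, named after their values were seen, were mixed. Several were high in HFD mouse 1 and control mouse 1 and low in the other 4 mice. Igkc, the kappa light chain constant region, had 116.5, 9.18 and 11.4 normalized counts in the HFD mice and 91.8, 8.90 and 5.47 in the control mice. Jchain, which links secreted IgM and IgA and marks plasma cells, had 33.2, 4.08 and 11.4 against 49.3, 10.3 and 2.19. Reads on heavy chain variable segments (16 of 91 segments had a read) summed to 31.1, 7.14 and 0 against 36.9, 2.05 and 1.09. For each of these the 2 highest mice were HFD mouse 1 and control mouse 1, 1 on each diet. Light chain variable segments (47 of 196 with a read) gave 104.5 and 71.7 in these 2 mice and 6.56 to 15.1 in the other 4. The lambda constant region Iglc2 was high in HFD mouse 1 alone, with 41.2, 0 and 0 against 1.12, 0 and 3.28. Mzb1, a gene of antibody secreting cells, followed another order, with 113.5, 114.2 and 37.5 against 71.7, 70.5 and 67.8. Its exons share bases with Spata24 on the same strand, so reads there cannot be assigned to Mzb1 alone. The order of Mzb1 is therefore uncertain as a measure of antibody secreting cells. Cxcr5, the receptor for Cxcl13, was highest in HFD mouse 1 and control mouse 1, with 22.1, 6.12 and 10.2 against 21.3, 16.4 and 9.84. A single heavy chain segment, Ighv11-2, had 22.4 normalized counts in control mouse 1, 6.03 in HFD mouse 1, 1.09 in control mouse 3 and no read in the other 3 mice. The limit from a sum of 0 reads in HFD mouse 3 is 3.41 normalized counts. Ighg2c, an IgG constant region, did not separate these mice, with 162, 171 and 143 in the HFD mice and 275, 205 and 239 in the control mice, and Igha, the IgA constant region, was at 9.04 in HFD mouse 1, 10.2 in HFD mouse 3 and listed at 0 in the other 4. Reads of near-identical segments and constant regions can be split or lost among copies, since uniquely mapped reads were kept.

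**Figure D3:**
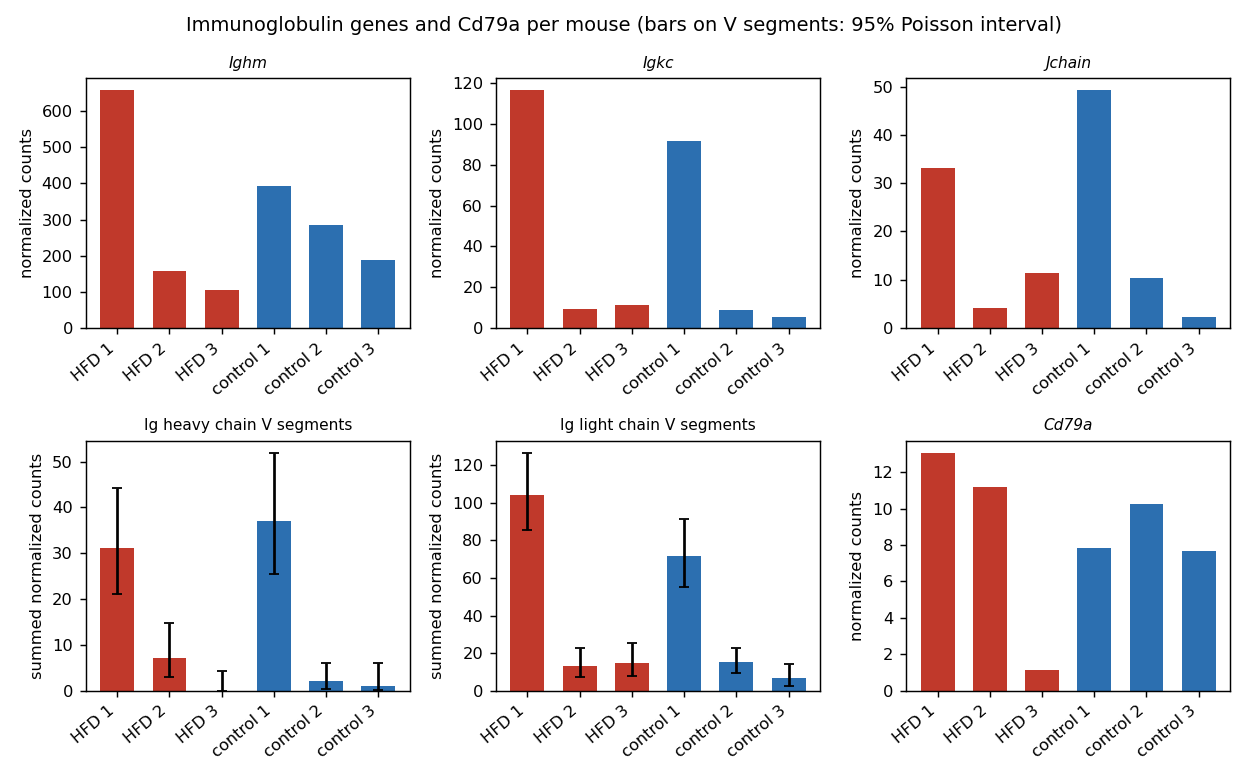
Normalized counts of Ighm, Igkc, Jchain, the summed heavy and light chain variable segments, and Cd79a in the 3 HFD (red) and 3 control mice (blue), each panel on its own axis from 0, with 95% Poisson intervals on the summed segments. HFD mouse 1 and control mouse 1 are the highest in every panel but that of Cd79a, which follows another order.

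Other tissue markers moved in HFD mouse 1. The 6 adipocyte genes summed to 5247 normalized counts in HFD mouse 1 and 3043 in control mouse 1, against 594 to 2218 in the other 4 mice. The lymph node stroma genes found (5 of 6 listed) summed to 1689 in HFD mouse 1 and 481 to 727 in the others, and most of this was Cxcl13, a B cell attracting chemokine, at 1323 in HFD mouse 1 and 258 to 417 in the others. The 6 neutrophil genes summed to 432 in HFD mouse 1 and 132 to 190 in the others. Their part in the immunoglobulin values was not tested.

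The order of the mice differed among the other B cell genes. Cd79a, of the receptor's signaling pair, had 13.1, 11.2 and 1.14 normalized counts in the HFD mice and 7.84, 10.3 and 7.65 in the control mice. Cd79b, its partner, had 13.1, 5.10 and 15.9 against 15.7, 4.79 and 6.56. The pair differed most in HFD mouse 3, which was lowest for Cd79a with 1 read and highest for Cd79b with 14 reads. The log2 fold change of Cd79b was 0.33 (limma, adjusted p = 0.904) and 0.04 without HFD mouse 3. Blk, a kinase of B cells that some T cells also make, had 17.1, 0 and 31.8 against 19.0, 21.9 and 18.6. Its log2 fold change of -1.31 (95% confidence interval -3.73 to 1.12, limma, adjusted p = 0.690) rested on HFD mouse 2, where no read was found, and was 0.23 without that mouse and -2.29 without HFD mouse 3. It was -0.30 with edgeR, -0.29 with DESeq2 and -2.39 with a pseudocount of 0.1. Cd22, an inhibitory coreceptor, ranged from 0 to 16.4, highest in control mouse 2. Ms4a1, which encodes CD20, and Pax5, the factor that fixes B cell identity, had at most 5 and 3 reads in any mouse. The 6 B cell genes without Ighm summed to 57.3, 22.4 and 55.7 in the HFD mice and 45.9, 56.8 and 40.4 in the control mice, with HFD mouse 2 lowest and overlapping Poisson intervals in the other 5.

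Among the regulators, Ctla4 was higher in every HFD mouse than in any control mouse. It encodes an inhibitory receptor of activated and regulatory T cells that competes with CD28 for its ligands. Ctla4 had 35.2, 22.4 and 18.2 normalized counts in the HFD mice, a mean of 25.3 ± 8.84 (SD, n = 3), and 13.4, 10.3 and 8.74 in the control mice, a mean of 10.8 ± 2.39. All 3 HFD mice were above all 3 control mice, and HFD mouse 3, the highest for most T cell genes, was the lowest of the HFD mice. On the log2 scale the difference was 1.12, its standard error 0.48 (limma, unadjusted p = 0.0422, adjusted p = 0.384), and the two-sided exact permutation test gave p = 0.1, the smallest that 3 mice against 3 allow. Without HFD mouse 3 it was 1.32 (adjusted p = 0.295). Over the alternatives the fold change ranged from 0.86 to 1.32. The adjusted p ranged from 0.237 to 0.671 where it was given, with none from DESeq2 (unadjusted p = 0.0444), and the unadjusted p was under 0.05 in 8 of 14 alternatives. The deposited table starts the gene at position 60887000 of chromosome 1, 22025 bases before the RefSeq start site used for the sequence above, and ends it at 60915832. Where along this span the reads lay is not known from gene counts.

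Foxp3, the lineage factor of regulatory T cells, was lower in every HFD mouse than in any control mouse. It had 3.01, 0 and 1.14 normalized counts in the HFD mice (3, 0 and 1 reads) and 5.60, 8.90 and 12.02 in the control mice (5, 13 and 11 reads). HFD mice 2 and 3 were under the limit of 3 reads, and HFD mouse 1 was at it. The mean was 1.38 ± 1.52 (SD, n = 3) against 8.84 ± 3.21, with an exact permutation p of 0.1. Below the limit for testing, it had a log2 fold change of -2.21 in the limma fit without a filter on low values. There its unadjusted p was 0.0111 and its adjusted p 0.299, while Ctla4 had an unadjusted p of 0.0577 in that fit. The exons of Foxp3 (chromosome X, 7579676 to 7595243) share 853 bases with Flicr on the same strand, and 590, 373 and 266 bases with Ccdc22, Gm36995 and Ppp1r3f on the opposite strand, so these reads are uncertain. Ctla4 and Foxp3, which regulatory T cells express together, stood on opposite sides in these mice.

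**Figure D4:**
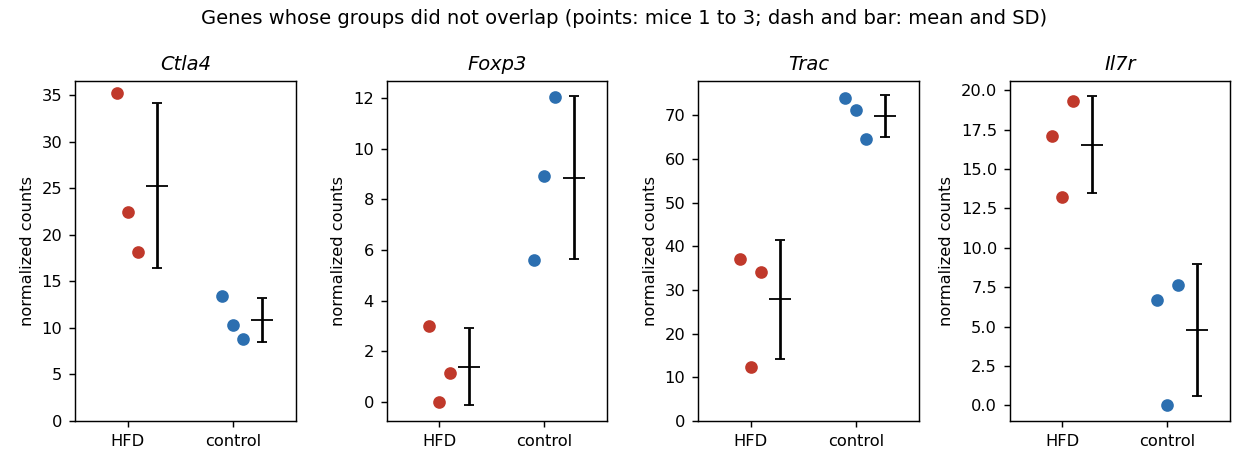
Normalized counts of Ctla4, Foxp3, Trac and Il7r in the 3 HFD (red) and 3 control mice (blue), with the mean and SD of each group as a dash and bar. Ctla4 and Il7r lie higher and Foxp3 and Trac lower in all 3 HFD mice than in all 3 control mice, and none of the 4 has an adjusted p under 0.05 (Foxp3 is below the limit for testing). Il7r passed that limit only through its HFD values.

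The remaining regulators were spread over both groups. Gata3, the factor of type 2 helper T cells that innate lymphoid and some stromal cells also make, had 65.3, 59.1 and 40.9 normalized counts in the HFD mice and 63.8, 40.4 and 38.3 in the control mice. Ikzf1, the pan-lymphoid factor Ikaros, had 49.2, 53.0 and 65.9 against 60.5, 42.4 and 71.0. Both were among the better measured of the 36 genes, and their groups overlapped. Differences on the log2 scale were 0.22 for Gata3 (95% confidence interval -0.48 to 0.92, limma, adjusted p = 0.835) and -0.03 for Ikzf1 (-0.66 to 0.60, adjusted p = 0.983). Ltb, lymphotoxin beta, which lymphocytes use to shape lymphoid tissue, had 11.1, 5.10 and 21.6 against 8.96, 14.4 and 3.28, with a log2 fold change of 0.45 (adjusted p = 0.868) and of -0.02 without HFD mouse 3. Tbx21, the T-bet factor of type 1 T cells and NK cells, had 0, 9.18 and 14.8 against 6.72, 5.48 and 9.84. Ikzf3, the factor Aiolos, had 17.0 in HFD mouse 3 and 2.74 to 7.65 in the others, and Pdcd1, the PD-1 checkpoint receptor, had 9.09 in HFD mouse 3 and 0 to 2.74 in the others. These last 3 were highest in HFD mouse 3, as the T cell genes were. The 8 regulators summed to 168.8, 154.0 and 188.5 in the HFD mice and 164.6, 127.3 and 150.8 in the control mice.

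**Figure D5:**
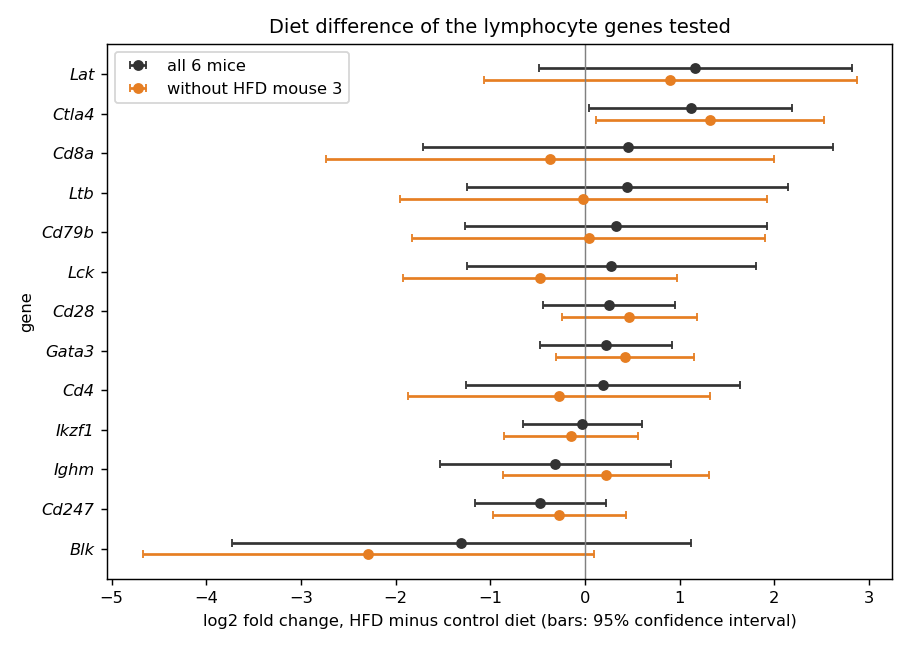
Log2 fold change (HFD minus control) of the 13 lymphocyte genes tested, with 95% confidence intervals from limma, over all 6 mice (black) and without HFD mouse 3 (orange). Ctla4 is the gene whose interval lies above 0 in both fits, before adjustment, and Cd4, Cd8a, Lck, Ltb and Ighm change sign between the fits. Cd8a, Lat, Cd79b and Ltb passed the limit for testing only through their HFD values.

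In wider lists of lymphocyte genes, limma called 0 genes at an adjusted p under 0.05, as did edgeR and, where it gave an adjusted p, DESeq2 on the recovered reads. Of 32 other T cell genes 31 were found and 13 tested. Their median difference was -0.15 on the log2 scale, and 2 had an unadjusted p under 0.05 (1 with edgeR and 2 with DESeq2). Trac, the constant region of the T cell receptor alpha chain, had 37.2, 12.2 and 34.1 normalized counts in the HFD mice and 73.9, 71.2 and 64.5 in the control mice. Its groups did not overlap, the control mice lay close together, and HFD mouse 3 was not high. The difference was -1.44 ± 0.41 (log2 fold change and standard error, limma, adjusted p = 0.157). Il7r, the interleukin 7 receptor of naive and memory lymphocytes, had 17.1, 13.3 and 19.3 against 6.72, 0 and 7.65, with a log2 fold change of 2.10 (limma, adjusted p = 0.391). It passed the limit for testing only through its HFD values, so its direction is tied to that limit. Trbc2, the constant region of the beta chain, did not follow Trac, with 13.1, 10.2 and 31.8 against 13.4, 25.3 and 8.74, and Trbc1 had 14.1, 7.14 and 20.4 against 8.96, 0 and 2.19. The alpha and beta chain genes thus stood in different orders over the mice, and variable segments of the receptor (6 of 67 with a read) summed to 1.02 to 5.68 per mouse. These 4 genes were named after their values were seen.

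The 3 genes of largest count in the list of other T cell genes were Satb1, Thy1 and Lcp2, which other cell types also make, with log2 fold changes of 0.02, -0.16 and 0.19. In the 26 other B and plasma cell genes found of 29, 14 were tested, 0 had an unadjusted p under 0.05, and the median was 0.07. Their largest counts were in Xbp1 (0.29), Cd72 (0.05) and Sdc1 (-0.18), none of which is confined to B cells. Among the 23 other NK and cytotoxic genes 5 were tested, 0 had an unadjusted p under 0.05, and the median was -0.22. The largest counts were in Gzmm (-0.35), Il2rb (-0.25) and Runx3 (0.14). Ccl5, a chemokine of activated T and NK cells, named after its values were seen, had 4.02, 12.2 and 63.6 against 17.9, 7.53 and 2.19 and so was highest in HFD mouse 3. Of the 16 cytokines and their lineage factors 5 were tested, with a median of 0.03, and Il13, Il17a, Il21 and Il22 were listed at 0 in all 6 mice. Zbtb16, a factor of innate-like T cells that muscle and other tissues also make, had the 1 unadjusted p under 0.05 of this list. Its normalized counts were 666, 2632 and 826 in the HFD mice and 353, 417 and 324 in the control mice, with a log2 fold change of 1.64 (limma, adjusted p = 0.101). Its groups did not overlap, and HFD mouse 2, which had the lowest sum of the 12 T cell genes, was far the highest. Bcl6, a factor of follicular helper T cells and germinal centre B cells and also among the 3 of largest count, was at 0.37.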

How the data were processed

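Atrial RNA of 3 HFD and 3 control mice was sequenced from directional libraries by the authors. They ran STAR for the alignment (GRCm38), discarded reads with several positions, counted per Ensembl gene through Salmon, and normalized in DESeq2. Tool versions and the use of strand in counting are not given in the sources used here. Each deposited value, a signal made by the authors, is a gene's reads over the sample's DESeq2 size factor (normalized counts). Whole reads were recovered for 100% of the values (tolerance 0.01). The authors' own fold changes and p-values were not used.

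Genes with a mean of at least 10 were compared with limma 3.58.1 (variance trend, R 4.3.3) on log2(normalized count + 1), without covariates and with Benjamini-Hochberg adjustment at 0.05. On this scale the fold change of low genes depends on the pseudocount. An exact permutation test (two-sided) was added for single genes. On simulated data limma recovered 195 of 200 genes changed 4-fold and called 7 unchanged genes, among 15275. The simulation gave every gene the same dispersion, at the means of all genes tested, and held no outlying mouse. The lymphocyte genes tested had standard errors of 0.28 (Ikzf1) to 1.09 (Blk), so the simulation does not give the power for them. Alternatives were quantile normalization, scaling by reads outside mitochondrial genes, no variance trend, no filter, a pseudocount of 0.1, a replicate block, each mouse left out, edgeR 4.0.16 and DESeq2 1.42.0 on the recovered reads. GENCODE exons on GRCm38 gave lengths and overlaps, and gene names matched regardless of capitals.

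Members and lists were chosen with earlier results of these data known. All 36 members are accounted for, and from each other list of lymphocyte genes any gene with an adjusted p under 0.05 and the 3 of largest mean were named, apart from a gene that is not reported here; other names are said to follow their values. Nothing says that mice of a group came from separate litters or cages, so p-values measure the spread between these samples.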

Additional observations from a re-analysis of the deposited data

How the results depend on the processing

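The 14 alternatives put 0 lymphocyte genes past the threshold, though DESeq2 gave an adjusted p for 5 of the 13 tested. The count over all genes moved: against 114, it was 0 without a variance trend, 470 with DESeq2, and 14 to 318 with a mouse left out (14 without control mouse 2, 19 without control mouse 3, 24 without HFD mouse 2, 318 without HFD mouse 3). The labels do not say that replicate numbers pair the mice, nor did the data (correlations of same-numbered deviations 0.12, -0.03 and 0.00), and the fit with the replicate block left 0 lymphocyte genes with an unadjusted p under 0.05, against 1. With a mouse left out this count was 0 to 1, with 0 without HFD mouse 2 or control mouse 3, and the 1 gene was Ighm without HFD mouse 1, Lat without control mouse 2 and otherwise Ctla4. The median log2 fold change of the lymphocyte genes ranged from -0.02 (without HFD mouse 3) to 0.51 (without HFD mouse 2). That of the T cell genes, 0.27, was -0.27 without HFD mouse 3, 0.64 without HFD mouse 2, 0.56 with edgeR and 0.57 with DESeq2. That of the B cell genes, -0.31, ranged from -1.10 to 0.23 with a mouse left out and was 0.09 with edgeR. With a mouse left out, single genes ranged from -0.27 to 0.77 for Cd4, -0.37 to 1.296 for Cd8a, -0.48 to 0.81 for Lck, -2.29 to 0.23 for Blk, -1.10 to 0.22 for Ighm, -0.063 to 0.93 for Ltb and -0.23 to 0.13 for Ikzf1, and Ighm turned to 0.094 with edgeR and 0.087 with DESeq2. Of 182 gene-by-alternative values 14 changed sign, and of the 174 with an adjusted p 0 passed the threshold. At this depth 23 of the 36 lymphocyte genes were under 3 reads in at least 1 mouse, and 23 had a mean too low to be tested.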

Other observations

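Among the marker lists set beside the lymphocyte genes, the lymphatic endothelial list held the 1 gene with an adjusted p under 0.05. Lyve1, a hyaluronan receptor of lymphatic vessels that resident macrophages also make, had 1575, 1840 and 1480 normalized counts in the HFD mice and 966, 893 and 794 in the control mice. The difference was 0.88 ± 0.13 (log2 fold change and standard error, limma, adjusted p = 0.0172), and the groups did not overlap. In limma without a variance trend 0 of all genes passed, so Lyve1 did not pass in that setting. The other 3 genes of the list (Prox1, Pdpn and Flt4) did not pass.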
